A study of Mus musculus with 6 samples.

Results

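The nuclear factor I genes Nfia, Nfib, Nfic and Nfix are described here across the cells of the mouse main olfactory epithelium. They were chosen by symbol, and all 4 were found among the 24564 genes of the files. Nuclear factor I proteins are transcription factors that bind DNA as dimers of any pair of family members, each subunit reading a TTGGC site on 1 arm of a palindrome. They are known for switching progenitors towards glia in the developing brain, for the maturation of cerebellar granule neurons and for muscle and hair follicle stem cell programs. In the olfactory epithelium each olfactory sensory neuron (OSN) expresses 1 olfactory receptor (OR) gene, and the ORs open to a neuron depend on its position along the dorsal to ventral axis, so the level of a transcription factor by position is of interest. The oxidoreductase gene Nqo1 marks the dorsal zone, and it was used to split the neurons.

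The study asked what becomes of OR choice when the heterochromatin protein HP1β, the product of Cbx1, is replaced by HP1α, the product of Cbx5. Single-cell RNA-seq was made from 6 libraries of dissociated main olfactory epithelium, each a separate mouse as far as the labels say, and ages were not given. The 2 swap libraries carry the genotype Cbx*/* with a Cre allele active in neuronal lineages. Control 1 was wild type at Cbx1 and carried the same Cre, and control 2 was Cbx*/* without Cre, in which the Cbx1 sequence of the allele is still expressed. The gg8tTA library carried the gg8-tTA driver alone, and the tetOP2 library carried gg8-tTA with tetOP2iresGFP, an allele from which tTA drives the OR gene P2 (Olfr17). The driver gg8 is active in immature OSNs, and the Cre acts also in other neuronal lineages of the mouse.

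Nfia lies on chromosome 4 at chr4:97772734-98118874 on the plus strand, Nfib on the same chromosome at chr4:82290173-82705750 on the minus strand, Nfic at chr10:81396186-81455635 on the minus strand and Nfix at chr8:84699876-84800344 on the minus strand (GRCm38, GENCODE vM21, whole protein-coding genes with introns). In the files, E130114P18Rik lies antisense within Nfia and Lyl1 within Nfix, and Mir1191b lies on the strand of Nfic. RefSeq promoters of 300 bases (250 before and 50 after a start site, GRCm38.p6) were at hand for 3 of the 4 members. They are shown because the members' own products read the TTGGC site, which is in capitals (GCCAA where it lies on the other strand). The first is the Nfia promoter at chr4:97581693-97581992, plus strand, upstream of the GENCODE start. The second is an Nfix promoter at chr8:84772826-84773125, minus strand. Like the other Nfix promoters at hand it lies inside the gene, downstream of the GENCODE start. The third is the promoter of Nqo1, the gene that splits the neurons, at chr8:107403156-107403455, minus strand. All are written 5′ to 3′ along the gene.
Nfia: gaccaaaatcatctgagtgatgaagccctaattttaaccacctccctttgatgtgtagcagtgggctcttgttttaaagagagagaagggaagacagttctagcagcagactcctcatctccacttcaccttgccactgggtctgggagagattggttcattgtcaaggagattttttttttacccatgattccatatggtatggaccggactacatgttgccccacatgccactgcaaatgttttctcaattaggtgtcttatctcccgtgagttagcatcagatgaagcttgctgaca
Nfix: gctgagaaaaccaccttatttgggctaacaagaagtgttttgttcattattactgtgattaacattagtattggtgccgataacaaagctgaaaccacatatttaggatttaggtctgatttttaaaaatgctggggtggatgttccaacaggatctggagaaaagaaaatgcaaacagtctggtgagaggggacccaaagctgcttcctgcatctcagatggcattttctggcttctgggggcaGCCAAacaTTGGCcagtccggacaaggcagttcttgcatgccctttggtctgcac
Nqo1: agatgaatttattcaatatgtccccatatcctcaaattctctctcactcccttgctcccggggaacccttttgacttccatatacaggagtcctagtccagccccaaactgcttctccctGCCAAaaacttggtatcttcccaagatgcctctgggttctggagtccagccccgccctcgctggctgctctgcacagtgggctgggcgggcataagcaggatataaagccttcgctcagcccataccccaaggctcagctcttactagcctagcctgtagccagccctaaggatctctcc
The TTGGC site was present in 3 of the 4 Nfix promoters, and it was not found in the Nfia and Nfic windows. The window shown for Nfix held 2 TTGGC sites, 1 on each strand, the most of its 4 windows, and that of Nqo1 held 1. Across all 32851 promoters of this length 46.7% held the TTGGC site, and the full palindrome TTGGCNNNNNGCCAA was found in 12 (0.0365%) and in none of the promoters above. A match is a description of letters and not a measured binding site.

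The libraries held between 32005196 and 63277934 UMIs (unique molecular identifiers, 1 per captured RNA molecule), and 2563 to 5091 cells per library passed 1000 UMIs and 500 genes. After predicted doublets were left out, 23955 cells remained, of which 22.6% fell in no cell type gate. The labels call the cells OSNs, but 18 cell types were gated by markers, among them B cells, neutrophils and fibroblasts. Levels are given as CPM, the UMIs of a gene scaled to 1000000 UMIs of the cells summed. In mature OSNs Cbx1 stood at 80.6 and 156 CPM in control and at 0.971 and 3.20 in swap, and Cbx5 at 19.3 and 29.3 against 75.0 and 88.3. Xist was expressed in swap 1, gg8tTA and tetOP2, and the Y-linked Ddx3y in swap 2 and both controls. Library swap 1 stood apart in Bowman gland transcripts (564 CPM over 10 markers in Nqo1-negative mature OSNs, against 10.7 to 19.5 in the other swap and control libraries). Pairs of libraries shared at most 20 cell barcodes, 0.507% of the smaller library at most.

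Each member had its own order of cell types. Nfia was highest in olfactory ensheathing glia, at 272 ± 70.2 CPM (mean ± SD, n = 6 libraries), followed by endothelial cells at 221 ± 67.3 and neuronal precursors at 190.2 ± 81.1. Mature OSNs, at 22.8 ± 7.02, ranked above B lineage cells at 11.3 ± 8.53 and the neutrophil lineage at 6.36 ± 3.998. Nfib was highest in horizontal basal cells, the reserve stem cells of the epithelium, at 546 ± 156, and in sustentacular cells, its glia-like support cells, at 512 ± 163. It was 109 ± 22.2 in mature OSNs and 18.2 ± 27.8 in the erythroid cells next in order.

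Nfic was highest in ensheathing glia, at 211 ± 41.3, and in fibroblasts, at 186 ± 45.8. Endothelial cells, at 161 ± 64.3, and horizontal basal cells, at 151 ± 46.7, came next, and mature OSNs stood at 45.4 ± 9.74. Nfix was the member with OSNs near the top, at 338 ± 113 in horizontal basal cells, 326 ± 56.0 in mature OSNs and 270.2 ± 75.3 in fibroblasts. It was lowest in the neutrophil lineage, at 8.22 ± 8.28. Neighbours in these orders overlapped in their ranges over libraries at every step but the one from mature OSNs to erythroid cells for Nfib, so an order by means carries little between neighbours. Levels are not compared between the 4 genes, whose lengths and capture differ.

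**Figure D1:**
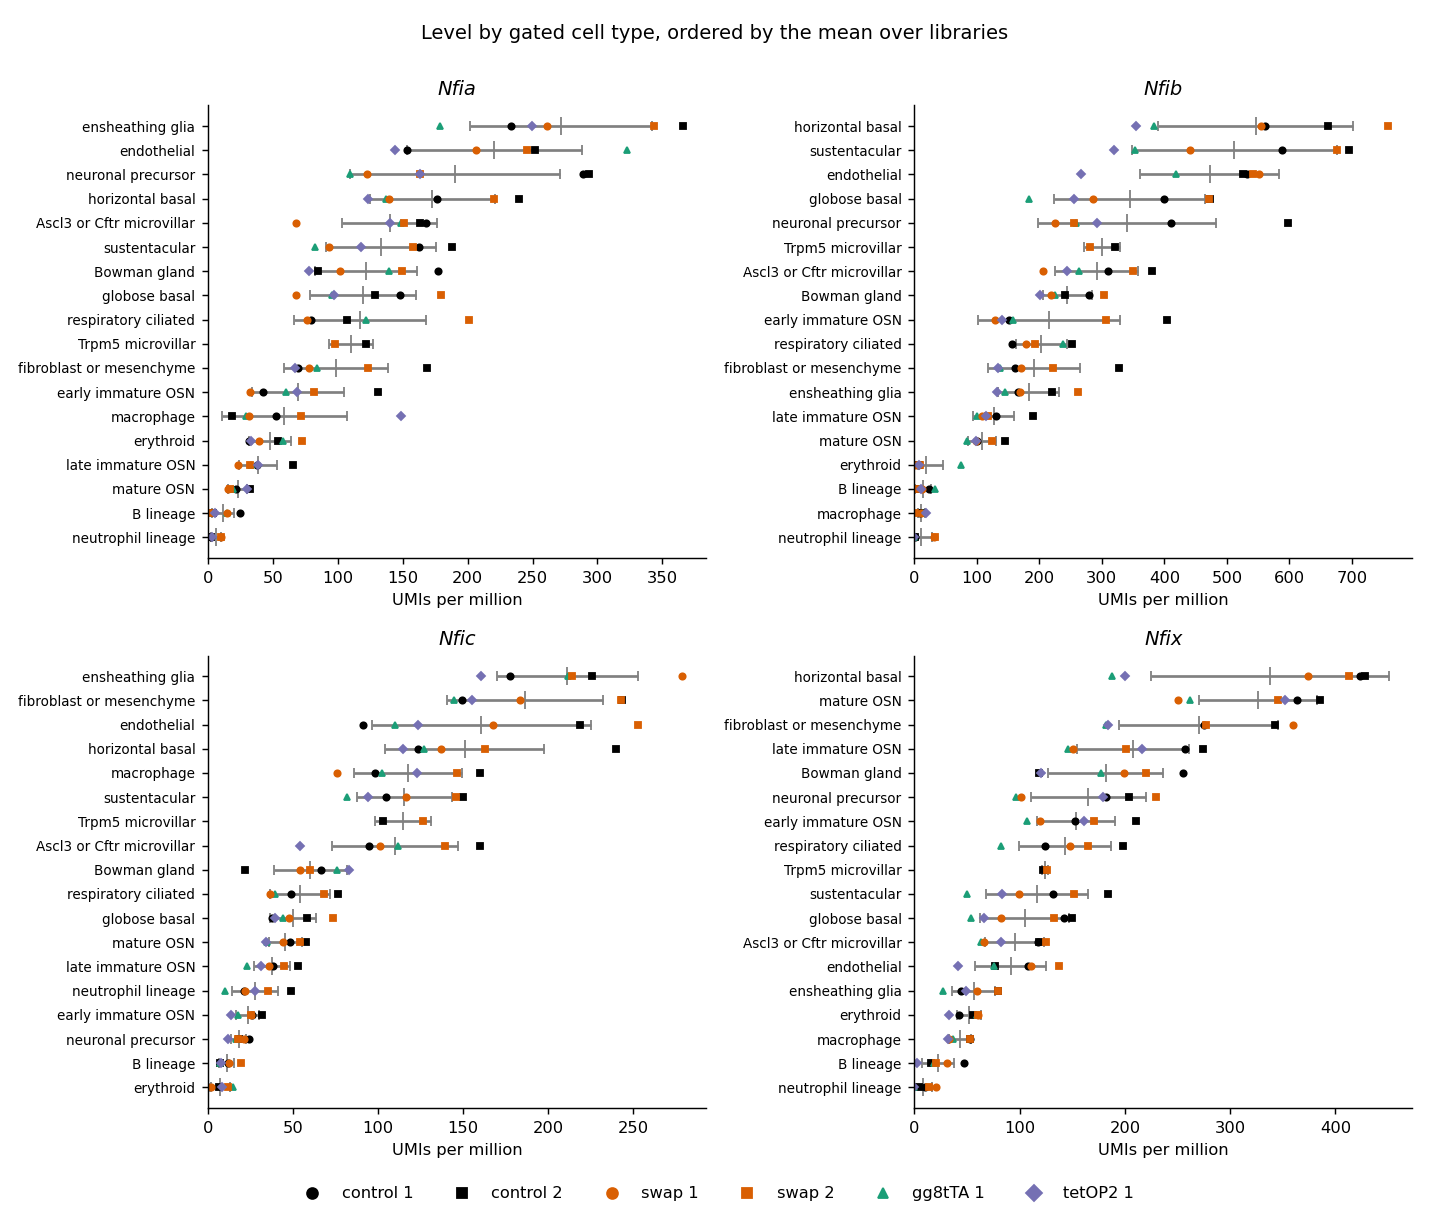
Level of each member by gated cell type, in CPM; points are libraries, the vertical tick is the mean over libraries and the bar its SD. Nfix in mature OSNs sat at 251 to 385, above the ensheathing glia, while Nfia in mature OSNs sat at 15.8 to 32.5, below all ensheathing glia values (179 to 366).

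Over the 18 cell types, the genes most like Nfia by the Pearson correlation of log2 levels were Wasl (r = 0.900), Ctnnd1 (0.870) and Lzts2 (0.861), and those most like Nfib were Cttn (0.946), Pard3 (0.941) and Pomgnt1 (0.925). Nfic was closest to the immediate early genes Egr1 (0.923) and Fos (0.917) and to Wtip (0.913), and Nfix to Cenpb (0.860), Tsc22d1 (0.857) and Fbf1 (0.856). Among themselves, Nfia and Nfib were most alike (0.825), then Nfib and Nfix (0.771), and Nfic and Nfix least (0.336). These are the largest of 14281 genes compared, all points share the same 6 libraries, and they are descriptions.

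Along the neuron lineage the 4 members parted. Nfia fell 9.39-fold from neuronal precursors to mature OSNs, Nfib fell 2.90-fold, Nfix rose 2.04-fold and Nfic rose 2.65-fold. In globose basal cells, the dividing neuronal progenitors, Nfia stood at 148 and 129 CPM in control 1 and 2, at 67.9 and 180 in swap 1 and 2, at 95.6 in gg8tTA and at 97.3 in tetOP2. In neuronal precursors it stood at 289, 294, 122, 164, 110 and 163 in the same order, in early immature OSNs at 42.01, 131, 32.3, 81.6, 60.0 and 68.8, and in mature OSNs at 21.5, 32.5, 15.8, 17.2, 19.3 and 30.4. Every library fell from precursor to mature OSN, and the 2 groups of values did not overlap.

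Nfib in neuronal precursors ranged from 225 to 598 over the 6 libraries, and in mature OSNs from 84.2 to 146, again with no overlap. Nfix ranged from 96.5 to 229 in precursors and from 251 to 385 in mature OSNs. Nfic ranged from 11.5 to 24.3 in precursors and from 34.01 to 57.4 in mature OSNs, so that for Nfix and Nfic the mature values lay above all precursor values.

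The 4 swap and control libraries were tested by edgeR's quasi-likelihood test with the library as a block. The fall of Nfia was -3.23 ± 0.23 on the log2 scale (adjusted p = 5.57e-10, Benjamini-Hochberg over all genes) and that of Nfib -1.54 ± 0.20 (adjusted p = 1.54e-06). The value after ± is an approximate SE, derived from the test statistic, here and for all edgeR estimates below. The rise of Nfix was 1.03 ± 0.10 (adjusted p = 3.42e-08) and that of Nfic 1.41 ± 0.15 (adjusted p = 1.05e-07). A gene was called where the adjusted p was under 0.05 and the log2 fold change over 0.58 in size. All 4 members were called, where 64.8% of all genes tested were, so being called over this span says little by itself.

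By single steps, Nfia rose from globose basal cells to precursors by 0.76 ± 0.25 (edgeR adjusted p = 0.0193), where 38.2% of genes were called, and fell into early immature OSNs by -1.83 ± 0.23 (adjusted p = 2.54e-06), where 45.0% were called. Nfib fell at the latter step by -0.78 ± 0.20 (adjusted p = 0.00292), a call that was lost without control 1 (-0.52). The rise of Nfia was lost without control 1, without control 2 or without swap 1, with log2 fold changes of 0.61 to 1.01 over the libraries left out. Nfia and Nfib then fell from early to late immature OSNs, by -0.73 ± 0.26 (adjusted p = 0.0392) and -0.72 ± 0.21 (adjusted p = 0.0108), a step at which 21.6% of genes were called. Both calls were lost without control 2 and without swap 2, and that of Nfia also without swap 1, with log2 fold changes of -0.91 to -0.55 for Nfia and -0.89 to -0.51 for Nfib over the libraries left out. Stage sums mix cells with and without 2 or more Nqo1 UMIs. Cells with them were 7.43% to 15.7% of early and 20.9% to 31.8% of late immature OSNs in these libraries. The part of these shares in the stage steps was not tested. Nfix rose from late immature to mature OSNs by 0.80 ± 0.09 (adjusted p = 2.78e-06), where 21.3% were called. Nfic fell from globose basal cells to precursors by -1.36 ± 0.18 (adjusted p = 6.75e-06) and rose from early to late immature OSNs by 0.67 ± 0.14 (adjusted p = 0.000859).

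Of 16 transcription factors and cofactors of olfactory neurons listed beside the members, 15 passed the filter, 4 rose and 7 fell from precursors to mature OSNs, with a median log2 fold change of -0.53 against 0.07 over all genes, of which 64.8% were called. Lhx2 rose by 8.72 and Ebf2 by 7.67 on the log2 scale from globose basal cells to precursors (edgeR adjusted p = 1.24e-17 and 2.24e-16), and Sox11, a factor of newly formed neurons, fell by 6.04 from precursors to mature OSNs (adjusted p = 5.52e-15). Nfia and Nfib fell over the span in which Sox11 fell, and Nfix and Nfic rose over it. Of 11 genes described as nuclear factor I targets in brain 6 passed the filter and 3 fell, with a median of -1.59. Ezh2, a histone methyltransferase, fell by 4.18 from precursors to mature OSNs (edgeR adjusted p = 1.20e-14), and Cntn2, an adhesion molecule of granule neurons, fell by 2.25 (adjusted p = 0.000700).

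**Figure D2:**
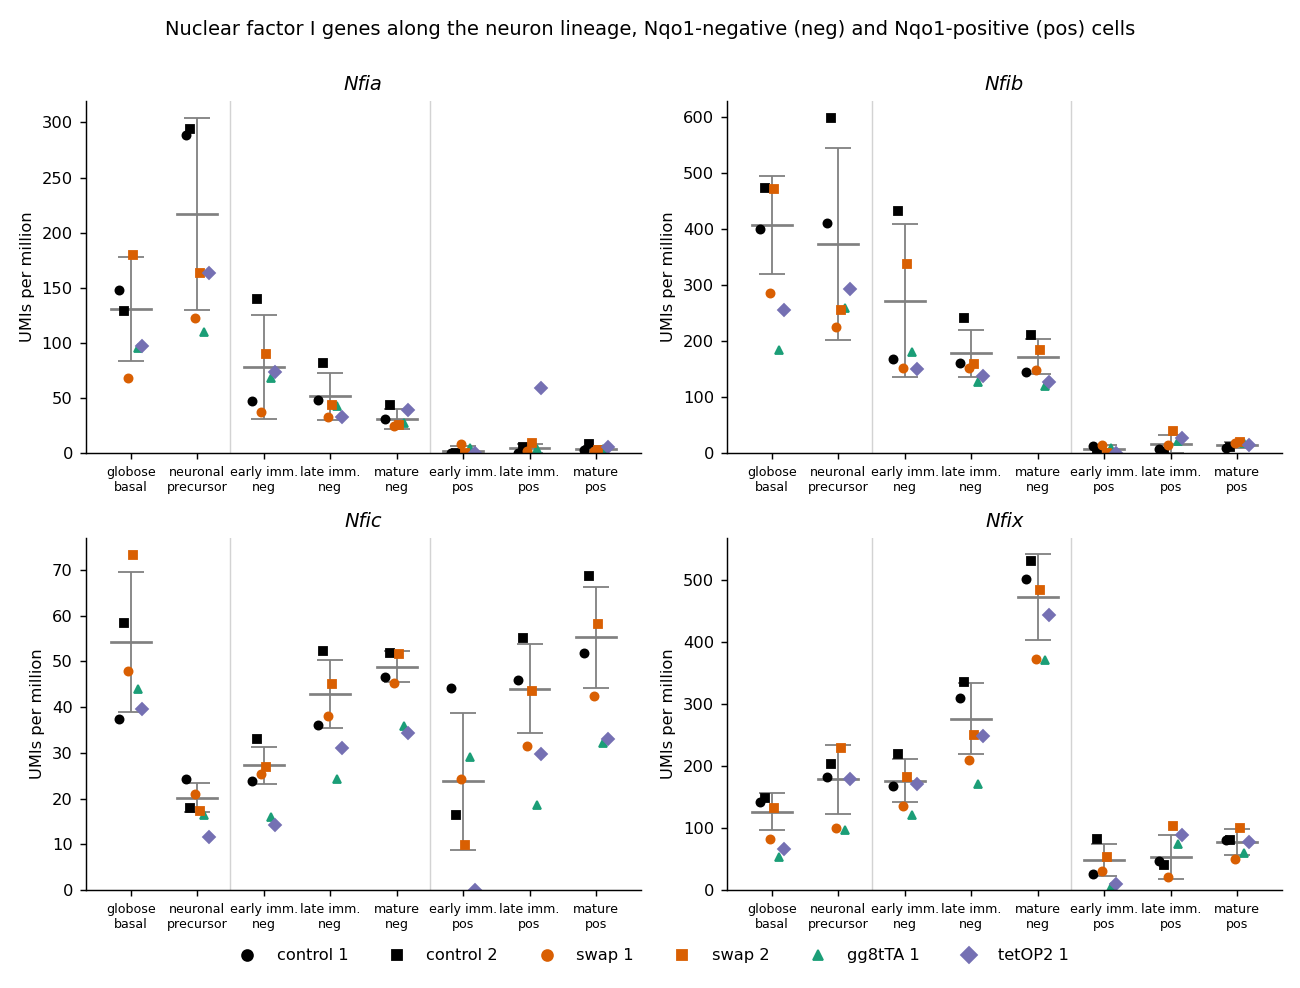
Level of each member along the neuron lineage, in CPM, with OSN stages split into Nqo1-negative and Nqo1-positive cells; points are libraries, and the long tick and bar are the mean and SD of the 4 swap and control libraries. In Nqo1-negative OSNs Nfix reached 372 to 531 at maturity, while in Nqo1-positive OSNs it reached 49.8 to 100.5.

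The members were then compared between zones. Mature OSNs were cells with 10 or more Omp UMIs, more Omp than Gap43 and fewer than 5 Cyp2g1 UMIs, and they were called Nqo1-positive with 2 or more Nqo1 UMIs. In mature OSNs, Nfia, Nfib and Nfix were lower in Nqo1-positive cells in every library, and Nfic was not. For Nfix, Nqo1-negative cells stood at 502 and 531 CPM in control 1 and 2, at 373 and 485 in swap 1 and 2, at 372 in gg8tTA and at 445 in tetOP2. Nqo1-positive cells stood at 80.9, 81.8, 49.8, 100.5, 59.9 and 78.2 in the same order. The 2 sets of values were far apart, with no overlap between any libraries.

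For Nfib, Nqo1-negative cells stood at 144, 210.3, 148, 183, 120.1 and 127 CPM and Nqo1-positive cells at 8.51, 10.9, 19.0, 20.4, 17.8 and 14.7. For Nfia, the levels were 30.7, 44.1, 24.2, 25.5, 27.6 and 39.0 against 2.84, 8.36, 1.93, 2.55, 3.92 and 5.25. Neither gene's classes overlapped in any pair of libraries. For Nfic, the levels were 46.7, 51.9, 45.3, 51.6, 35.9 and 34.3 against 51.8, 68.6, 42.4, 58.3, 32.1 and 33.1, so that the classes overlapped.

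In control, Nfib was 17.8-fold lower in Nqo1-positive cells (log2 fold change -4.15 ± 0.10, edgeR adjusted p = 1.11e-07), Nfia 6.55-fold lower (-2.71 ± 0.20, adjusted p = 2.54e-05) and Nfix 6.21-fold lower (-2.63 ± 0.10, adjusted p = 5.69e-07). Nfic differed by 0.32 ± 0.11, with an adjusted p of 0.114 and a 95% interval from 0.07 to 0.56. So 3 of the 4 members were called lower, where 4.82% of all genes tested were. In swap the same 3 were called lower, where 3.70% of genes were, with Nfia at -3.42 ± 0.27 (adjusted p = 5.56e-05), Nfib at -3.06 ± 0.09 (adjusted p = 3.22e-07) and Nfix at -2.48 ± 0.11 (adjusted p = 1.81e-06), and Nfic at 0.07 ± 0.12 (adjusted p = 0.832).

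Free RNA gives some UMIs to cells that do not express a gene, so shares of cells were compared with blood cells after each cell was thinned to 3000 UMIs. In Nqo1-positive mature OSNs, Nfia was detected in 0.717% to 2.12% of cells, and in 0% to 4.17% of B lineage cells. Within libraries the share of Nfia was above that of B lineage cells in control 2 (2.12% against 0.426%), gg8tTA (0.866% against 0%) and tetOP2 (1.76% against 0%) and below it in control 1 and both swap libraries, the 4.17% being that of 72 cells in swap 1. Nfib was detected in 1.63% to 5.02% of Nqo1-positive cells and in 0% to 10% of B lineage cells, the highest share coming from the 30 B lineage cells of gg8tTA. Within libraries, Nfib was detected in 2.83%, 5.02% and 4.37% of Nqo1-positive OSNs of control 2, swap 1 and swap 2, against 0%, 1.39% and 0% of their B lineage cells, and in 1.63% against 2.22% in control 1. In Nqo1-negative OSNs Nfib was detected in 30.4% to 41.9% and Nfia in 5.73% to 9.64%. Nfix was detected in 12.5% to 17.5% of Nqo1-positive OSNs, above the 0% to 8.33% of B lineage cells, and in 59.6% to 74.6% of Nqo1-negative OSNs. Median depths before thinning were lower in Nqo1-positive than in Nqo1-negative OSNs in every library, as in control 1, at 11472 and 12843 UMIs per cell, and lower again in B lineage cells, at 3125.

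Few mature OSNs lay near the threshold of 2 UMIs, and most Nqo1-positive ones had more than 4. Over the 4 swap and control libraries, Nfix stood at 494 CPM in mature OSNs with 0 Nqo1 UMIs, at 305 with 1, at 200.3 with 2, at 194 with 3 and at 154 with 4. Nfib stood at 178, 119, 16.5, 49.6 and 15.1 in the same order, and Nfia at 33.5, 16.1, 1.84, 4.96 and 0. Only 103 cells had 1 UMI, 48 had 2, 36 had 3 and 43 had 4, beside 2382 with 0.

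Nfib is also expressed by sustentacular and horizontal basal cells, whose markers were summed in the same OSNs. The summed level of 8 sustentacular markers was 91.2 to 215 CPM in Nqo1-negative and 81.5 to 105 in Nqo1-positive mature OSNs of the swap and control libraries, and that of 8 horizontal basal markers was 3.30 to 14.05 and 2.55 to 9.32. Sustentacular markers were all detected but 1 at most in each library and class. In the gg8tTA and tetOP2 libraries the sustentacular sums were 472 to 501 and 452 to 534. Their part in the levels of Nfib was not tested.

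Other zone genes gave the frame for the members. In control 3 of 5 dorsal genes were called higher in Nqo1-positive cells, among them Nqo1, which made the split. Of 6 ventral genes 5 were called lower, where 4.82% of all genes were. The share of all genes called higher is not given, and counts of calls in both directions follow below. Acsm4, an acyl-CoA synthetase of the dorsal zone, was higher by 4.02 on the log2 scale and Robo2, an axon guidance receptor, by 1.08 (edgeR adjusted p = 3.58e-07 and 1.04e-05). Pdlim1 differed by -4.60, Ncam2 by -3.23, Nrp2 by -2.63 and Cidea by -2.41, so that the log2 differences of Nfia, Nfib and Nfix lay in the range of the ventral genes. Of the 11 genes listed as nuclear factor I targets 4 passed the filter, with a median of 0.08, and 1 was called. It was Fabp7, a fatty acid binding protein of glia, higher by 2.37 ± 0.24 in control (edgeR adjusted p = 0.000163). In swap Fabp7 stood at 0.12 (adjusted p = 0.907), and the difference between the 2 effects, -2.25, had an adjusted p of 0.0647. None of the 16 factors, all tested, was called in either group, and their median was 0.07 in control and -0.04 in swap.

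The zone difference was then traced back along the lineage. The share of Nqo1-positive cells was 35.2%, 35.5%, 38.8%, 38.6%, 35.1% and 25.9% of mature OSNs in control 1 and 2, swap 1 and 2, gg8tTA and tetOP2. It was 19.8% to 31.8% of late immature OSNs (Gap43 and Omp together) and 6.52% to 15.7% of early immature OSNs (Gap43 without Omp). Of the neuronal precursors of the swap and control libraries 1 had 2 or more Nqo1 UMIs and 414 had fewer, and all 111 globose basal cells had fewer, so these stages could not be split. The early immature stage is thus the earliest at which a zone difference could be measured here. With fewer Nqo1-positive cells at earlier stages, the Nqo1 classes need not be the same zones at each stage. In early immature OSNs of control 1 and 2 and swap 1 and 2, 10.6%, 7.43%, 15.7% and 8.37% were Nqo1-positive. By the OR classes defined below, 30.3%, 17.6%, 40.8% and 12.2% of those with a classed OR were dorsal. How many Nqo1-negative early cells were dorsal was not tested.

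In late immature OSNs, Nfix stood at 310.4, 336, 209, 250.3, 171 and 249 CPM in Nqo1-negative cells and at 47.7, 40.6, 21.0, 103, 74.7 and 89.2 in Nqo1-positive cells, in the same order of libraries. Nfib stood at 162, 240.1, 152, 158, 127 and 138 against 7.07, 2.90, 14.0, 39.0, 22.1 and 26.4. For both genes every Nqo1-negative value lay above every Nqo1-positive one. Nfia stood at 47.8, 81.6, 32.9, 43.8, 43.1 and 32.9 against 0, 5.81, 2.33, 9.17, 3.40 and 59.4. The last value, from the tetOP2 library, was the exception, with 18 UMIs of Nfia, and after thinning 7.69% of the cells of that class had a UMI.

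In edgeR's fit of the 4 swap and control libraries, Nfia differed between the classes of late immature OSNs by -3.63 ± 0.36 (adjusted p = 7.08e-09), Nfib by -3.44 ± 0.24 (adjusted p = 1.83e-12) and Nfix by -2.46 ± 0.17 (adjusted p = 2.00e-12), while Nfic differed by 0.03 ± 0.18 (adjusted p = 0.980). These 3 members were called lower, where 0.958% of genes were. Acsm4 was higher by 3.48 and Nrp2 and Ncam2 differed by -2.60 and -2.46. Among the factors 1 of 13 tested was called, the zinc finger factor Tshz1, lower by -0.86 (edgeR adjusted p = 2.15e-05).

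In early immature OSNs Nfia, Nfib and Nfix were already lower in Nqo1-positive cells. Nfix stood at 168, 219.6, 136, 182, 121 and 172 CPM in Nqo1-negative cells and at 26.1, 82.5, 30.9, 54.3, 4.84 and 10.8 in Nqo1-positive cells. Nfib stood at 168, 432, 152, 337, 179.5 and 151 against 13.0, 0, 14.6, 0, 9.68 and 0. Nfia stood at 47.0, 140.2, 36.9, 89.6, 67.9 and 73.8 against 0, 0, 8.14, 0, 4.84 and 0. In all 3 genes the classes did not overlap, and in Nqo1-negative cells control 2 and swap 2 stood above control 1 and swap 1. Sustentacular markers in the Nqo1-negative cells summed to 116 and 470.0 CPM in control 1 and 2 and to 103 and 108 in swap 1 and 2, so that control 2, the highest in Nfib, was also the highest in them. In Nqo1-negative late immature OSNs the same sums were 105, 574, 230 and 127. Their part in these levels was not tested.

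Many early immature OSNs lay near the Nqo1 threshold. In control 1 and 2 and swap 1 and 2, 14, 3, 29 and 7 had exactly 2 Nqo1 UMIs, and 43, 10, 47 and 8 had 1. Another Nqo1 threshold was run in mature OSNs only. The Nqo1-positive early immature class held only 9 to 67 cells per library. In the 4 swap and control libraries it gave 5 UMIs of Nfia, all in swap 1, and 5 and 9 UMIs of Nfib, in control 1 and swap 1, so the fitted folds of these genes depend on the prior count, and the values above are the measurement. edgeR's log2 differences were -3.90 ± 0.44 for Nfia (adjusted p = 1.06e-07), -4.31 ± 0.27 for Nfib (adjusted p = 2.32e-13) and -2.06 ± 0.18 for Nfix (adjusted p = 3.38e-10), and 0.04 ± 0.30 for Nfic (adjusted p = 0.988). These 3 were called lower where 1.22% of genes were. With 1 library left out at a time the values ranged from -9.61 (without swap 1) to -3.51 for Nfia, from -5.20 to -3.90 for Nfib and from -2.20 to -1.84 for Nfix, and all were still called. In the Nqo1-positive cells of swap 1 the horizontal basal markers summed to 589 and the sustentacular markers to 638 CPM, against 0 to 16.5 and 107 to 159 in the other 3 libraries. Markers of Bowman glands were higher in the Nqo1-positive than in the Nqo1-negative class of all 4 libraries, at 162, 206, 480.1 and 395 against 21.6, 48.7, 133 and 25.5 CPM in early immature OSNs, and at 231, 160, 1445 and 112 against 65.9, 23.1, 581 and 96.9 in late ones, in the order control 1 and 2, swap 1 and 2. The part of these cell types in the result was not tested.

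Beside the members, 2 of 15 factors tested were called lower in Nqo1-positive early immature OSNs, where 1.22% of all genes were. They were Meis1, by -3.19, and Ldb1, a cofactor of LIM proteins, by -1.11 (edgeR adjusted p = 0.00389 and 5.83e-05). Of 4 targets tested Fabp7 was higher by 1.92 (adjusted p = 0.0320). Of the zone genes 3 of 5 dorsal genes were higher, and of 4 ventral genes tested 3 were lower and Plxna1, a semaphorin receptor, was higher by 0.65. Nqo1, which made the split, is among these 5 dorsal genes, and the share of all genes called higher is not given.

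Whether the zone difference grew between stages was tested in 1 fit of the 3 OSN stages. From early to late immature OSNs it changed by 0.39 ± 1.10 on the log2 scale for Nfia (95% interval -1.91 to 2.69), by 1.00 ± 1.04 for Nfib (-1.17 to 3.17) and by -0.36 ± 0.42 for Nfix (-1.24 to 0.52). From late immature to mature it changed by 0.62 ± 0.73 for Nfia (-0.91 to 2.15), by -0.14 ± 0.66 for Nfib (-1.52 to 1.24) and by -0.12 ± 0.27 for Nfix (-0.70 to 0.45). None of the 4 members was called at either step, where 0.0551% and 0.00919% of genes were, and the intervals are wide for all 3 genes, so that neither a like nor a changed zone difference is shown, least of all for Nfia and Nfib from early to late. Leaving out 1 library at a time moved the first change of Nfia between -0.72 and 7.14, the former without swap 2 and the latter without swap 1, the only 1 of the 4 whose Nqo1-positive early class held Nfia UMIs.

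Nfix rose from late immature to mature OSNs in both classes. It rose by 0.88 ± 0.11 in Nqo1-negative cells (edgeR adjusted p = 2.41e-06), where 21.1% of genes were called, and by 0.75 ± 0.24 in Nqo1-positive cells (adjusted p = 0.0197), where 18.1% were. The second rise was lost without control 1, without control 2 and without swap 1, at adjusted p-values of 0.0782 to 0.120.

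The zone of an OSN was also read from its OR. An OR was called dorsal where over 50% of at least 3 mature OSNs that expressed it in 2 reference libraries were Nqo1-positive. The references were gg8tTA and the control with the other replicate number, or both controls for gg8tTA and tetOP2. The Nqo1 UMIs of the cell itself were thus not used. Of mature OSNs with an OR, 34.6% to 48.4% had a classed OR in each library but tetOP2, where 79.0% had. In mature OSNs with a dorsal OR Nfix stood at 80.2, 98.4, 97.2, 151, 43.2 and 84.4 CPM in control 1 and 2, swap 1 and 2, gg8tTA and tetOP2, and in those with another OR at 518, 561, 379.9, 524, 393 and 386. Nfib stood at 12.9, 21.2, 29.4, 42.2, 1.14 and 12.5 against 149.99, 229, 161, 211, 127 and 108. Nfia stood at 0 to 6.30 against 21.2 to 51.9. The classes of all 3 genes were again apart in every library. In tetOP2, however, many of the cells with another OR expressed the tTA-driven Olfr17, 280 of them Nqo1-negative and 92 Nqo1-positive. For those cells the OR does not report the zone.

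By edgeR, Nfia was lower with a dorsal OR by -3.60 ± 0.30 (adjusted p = 2.43e-10), Nfib by -2.82 ± 0.13 (adjusted p = 9.39e-17) and Nfix by -2.19 ± 0.09 (adjusted p = 3.94e-18), where 2.39% of genes were called lower, and Nfic differed by 0.06 ± 0.12 (adjusted p = 0.869). In late immature OSNs Nfib differed by -2.36 ± 0.28 (adjusted p = 3.11e-07) and Nfix by -1.90 ± 0.19 (adjusted p = 2.84e-09), where 0.527% were called lower, and Nfia did not pass the filter. In early immature OSNs Nfia differed by -3.57 ± 0.49 (adjusted p = 8.48e-07), Nfib by -4.12 ± 0.29 (adjusted p = 1.79e-15) and Nfix by -2.23 ± 0.22 (adjusted p = 4.28e-11), where 0.866% were called lower. The dorsal early class held 30, 6, 42 and 6 cells in control 1 and 2 and swap 1 and 2. It gave 1, 0, 3 and 0 UMIs of Nfia and 1, 3, 7 and 0 of Nfib, so the sizes of these 2 folds are poorly fixed. Their ± values are narrower than counting error alone. Outside the fit, Nfib stood at 89.7 CPM with a dorsal OR and 174 with another in gg8tTA, and at 0 and 151 in tetOP2.

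The split by OR and the split by Nqo1 disagreed in some mature OSNs. Of 89, 105, 92 and 109 cells with a dorsal OR in control 1 and 2 and swap 1 and 2, 7, 15, 19 and 23 had no Nqo1 call. In these Nfix stood at 382, 351, 309 and 355 CPM. With another OR but an Nqo1 call it stood at 274, 165, 167 and 314 (8 to 15 cells each). Both lay between the 42.1 to 94.4 of dorsal ORs with an Nqo1 call and the 398 to 578 of other ORs without one. In gg8tTA and tetOP2 the first kind, in 3 and 4 cells, stood at 58.9 and 215, and the second, in 12 and 97 cells, at 129 and 78.9. Of these 97 tetOP2 cells 92 expressed the tTA-driven Olfr17. Nfia in the first kind gave 1, 1, 1 and 0 UMIs in control 1 and 2 and swap 1 and 2, too few to place it.

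Within the dorsal and the other ORs the members still differed. ORs of class I, the family shared with fish, are expressed dorsally, beside dorsal ORs of class II. Nfix stood at 2.66, 11.4, 12.9, 34.7, 22.0 and 0 CPM in OSNs with a class I OR, and at 126, 179, 123, 187, 55.3 and 134 in OSNs with a dorsal class II OR, in the same order of libraries. The groups did not overlap, and Nfix was lower with a class I OR, by a fitted 10.98-fold (-3.46 ± 0.25, edgeR adjusted p = 1.60e-12), where 0.615% of genes were called lower. The class I levels are sums of 1, 7, 3 and 10 UMIs in control 1 and 2 and swap 1 and 2, and they lie within the 2.60 to 47.5 CPM of Nfix in B lineage cells, so the size of the fold is poorly fixed. Nfib differed by -0.86 ± 0.37 (adjusted p = 0.363) and Nfic by 0.24 ± 0.21 (adjusted p = 0.773), and Nfia did not pass the filter.

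The other ORs were put in 3 groups of like size, low, middle and high, by the levels of Ncam2, Nrp2 and Robo2 in the neurons that express them, the low group being nearest the dorsal zone. Nfia stood at 16.5, 14.7, 12.4, 12.1, 17.4 and 14.0 CPM in the low group and at 41.9, 93.2, 35.6, 16.5, 54.9 and 59.3 in the high group. It was higher in the high than in the low group in every library, by the least in swap 2. The middle group stood at 38.02, 37.4, 20.7, 39.4, 18.3 and 35.3, which in swap 2 was above the high group. In tetOP2 the middle group held 407 cells, among them those with the tTA-driven Olfr17. The difference was 3.39-fold (1.76 ± 0.23, edgeR adjusted p = 6.54e-07), where 1.64% of genes were called higher. Nfib was 1.501-fold higher (0.59 ± 0.09, adjusted p = 2.99e-05), close to the fold threshold, and its call was lost without control 1 and without control 2, with 0.45 to 0.71 over the libraries left out. Nfix differed by 0.20 ± 0.07 (adjusted p = 0.0911) and Nfic by 0.17 ± 0.16 (adjusted p = 0.730).

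**Figure D3:**
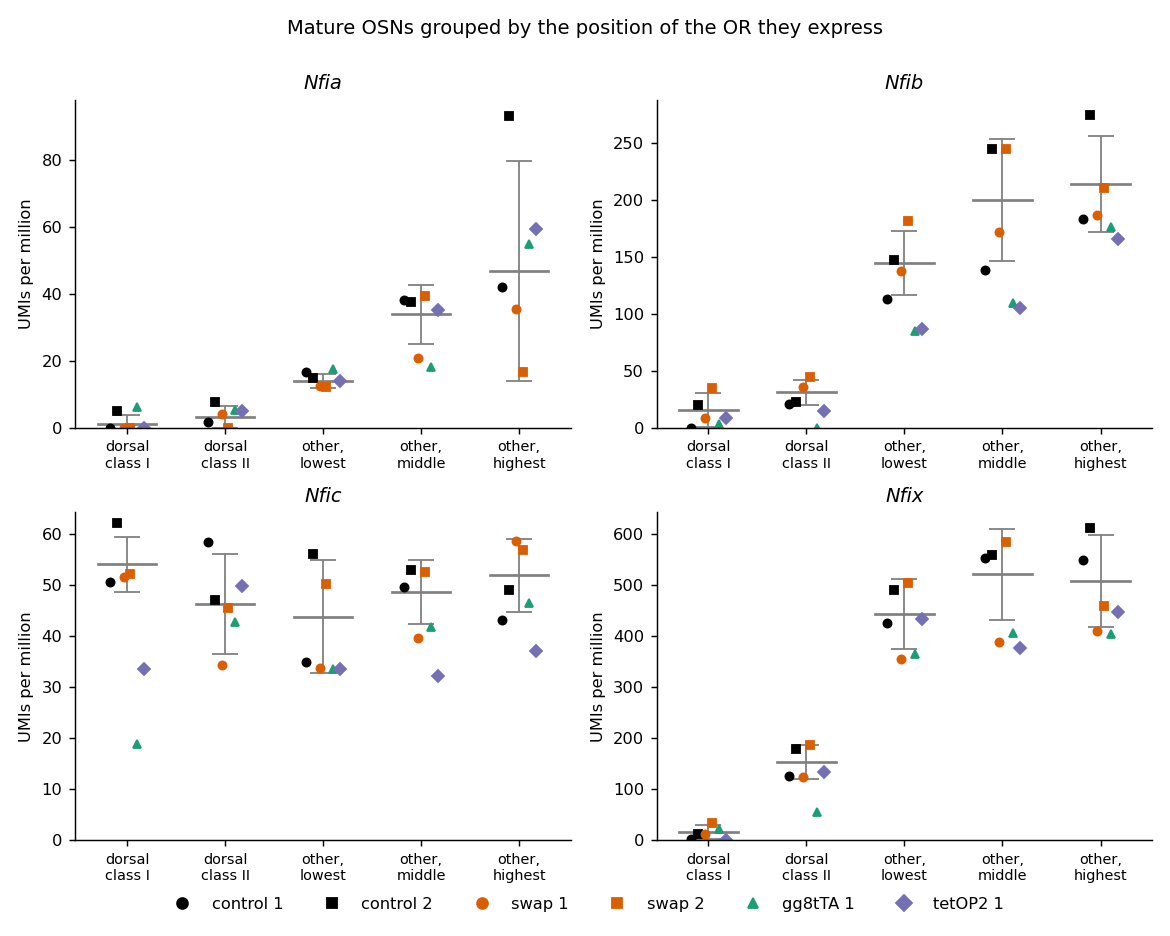
Level of each member in mature OSNs grouped by the OR they express, in CPM, from dorsal class I ORs to the other ORs in 3 groups by zone genes; points are libraries, and the tick and bar are the mean and SD of the 4 swap and control libraries. Nfix sat at 15.4 ± 13.6 with class I and 154 ± 33.8 with dorsal class II ORs, while Nfia sat at 13.9 ± 2.1 in the low and 46.8 ± 32.8 in the high group.

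The members were compared between swap and control in the 3 OSN stages, to ask whether the exchange of HP1 proteins moved them. No member was called in mature, late immature or early immature OSNs. In Nqo1-negative mature OSNs the log2 differences were -0.61 for Nfia (95% interval -1.28 to 0.06), -0.12 for Nfib (-0.77 to 0.53), -0.29 for Nfix (-0.87 to 0.29) and -0.05 for Nfic (-0.60 to 0.50), with 0.0170% of genes called. This class also mixes ORs. In mature OSNs of either Nqo1 class, the high OR group held 118 and 105 cells in control and 47 and 38 in swap. The low OR group held 83 and 88 against 78 and 85. The part of these shares in the differences of the Nqo1-negative cells was not tested. In all mature OSNs Nfia differed by -0.73 (-1.46 to -0.01), and 0% of genes were called by edgeR, where 305 had an unadjusted p under 0.05 and DESeq2 called 176.

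In late immature OSNs, where 0.190% of genes were called, Nfia differed by -0.91 (-1.73 to -0.08), Nfix by -0.61 (-1.19 to -0.04) and Nfib by -0.50 (-1.10 to 0.11). Sums over a whole stage mix the Nqo1 classes, whose shares differed between the groups. Of late immature OSNs 20.9% and 24.3% were Nqo1-positive in control 1 and 2, against 31.8% and 30.7% in swap 1 and 2. The part of these shares in the differences was not tested. In early immature OSNs, where 0.0476% were called, Nfia differed by -0.58 (-1.99 to 0.83), Nfib by -0.33 (-1.58 to 0.92), Nfix by -0.32 (-0.97 to 0.32) and Nfic by -0.19 (-0.80 to 0.43). With 2 libraries a group the fit called 5% of simulated 2-fold changes and 57% of 4-fold changes in Nqo1-negative mature OSNs, so these intervals and not the missing calls carry the result. The controls differ from each other in genotype, and swap 1 differs in sex from swap 2 and both controls. In neuronal precursors, where swap and control were not tested, Nfia stood at 289 and 294 CPM in control against 122 and 164 in swap, and Nfib at 411 and 598 against 225 and 256. The gg8tTA and tetOP2 libraries, which carry no swap allele, stood at 109.6 and 163 for Nfia and at 259 and 293 for Nfib, below both controls as well.

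In Nqo1-positive mature OSNs, where 0.301% of genes were called, Nfib stood at 8.51 and 10.9 CPM in control and at 19.0 and 20.4 in swap. The groups did not overlap, which says little by itself, as an exact permutation test of 2 against 2 libraries cannot go below 0.333. How many of all genes did not overlap was not counted. The difference was 0.99 ± 0.30 (95% interval 0.25 to 1.72, unadjusted p = 0.0162 in edgeR, lost on adjustment over all genes). Nfia differed by -1.32 (-2.84 to 0.21), Nfix by -0.14 (-1.03 to 0.76) and Nfic by -0.28 (-0.97 to 0.42). Among the Nqo1-positive cells with a dorsal OR, Nfib stood at 9.59 and 6.50 CPM in control and at 7.65 and 15.6 in swap, with overlap.

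Set against the Nqo1-negative cells of the same libraries, the zone difference of Nfib was smaller in swap than in control by 1.10 ± 0.15 on the log2 scale (95% interval 0.76 to 1.44, edgeR adjusted p = 0.0181), where 0.317% of genes were called. That of Nfia differed by -0.70 ± 0.40 (adjusted p = 1), that of Nfix by 0.15 ± 0.15 and that of Nfic by -0.24 ± 0.16. The Nfib levels in Nqo1-positive cells are sums of 36 to 88 UMIs, on which counting error alone is wider than the ± of 0.15. The levels of gg8tTA and tetOP2, at 17.8 and 14.7 CPM, lay above both controls too. The level of Nfib in the neutrophil lineage, which should lack it, was 1.34 and 1.04 in control and 32.1 and 33.2 in swap. In B lineage cells it was 23.3 and 2.75 in control and 12.3 and 2.47 in swap. The part of such background in the difference was not tested, and the call was lost without control 2 (0.97, adjusted p = 0.165), without swap 1 (1.01, adjusted p = 0.156) and without swap 2 (1.21, adjusted p = 0.100).

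**Figure D4:**
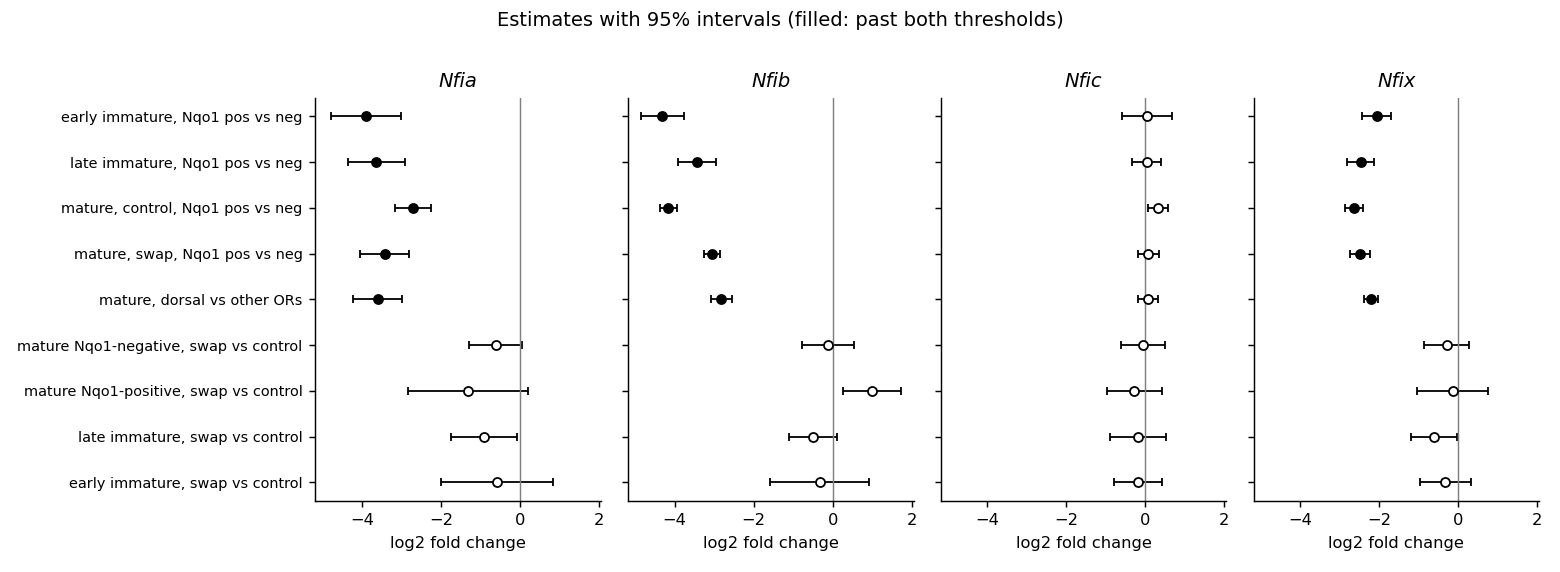
Log2 fold changes of each member with 95% intervals, in the Nqo1 comparison by stage and group, in dorsal against other ORs and in swap against control; filled points passed both thresholds. The zone differences of Nfia, Nfib and Nfix are all negative, down to -4.31, and all swap against control points are open.

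In the tetOP2 library the tTA-driven P2 allele sets the OR in many neurons, so the members could be read in cells with the same OR and a different Nqo1 class. Of the mature OSNs of that library that expressed Olfr17, 280 were Nqo1-negative and 92 Nqo1-positive. Nfix stood at 458 CPM in the first (95% Poisson interval 434 to 482) and at 76.7 in the second (60.6 to 95.7). Nfib stood at 133 (120.2 to 146) and 16.7 (9.73 to 26.8), and Nfia at 47.0 (39.7 to 55.3) and 4.91 (1.60 to 11.5). Among cells with 1 and the same OR, the 3 members were thus lower in the Nqo1-positive class. Nfic stood at 34.2 (28.0 to 41.3) and 29.5 (19.9 to 42.1).

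In cells of that library with another OR, Nfix stood at 446 (419 to 474) and 67.3 (50.7 to 87.6), and in the gg8tTA library at 379 (361 to 397) and 60.0 (50.9 to 70.3). Nfia in Nqo1-negative cells stood at 28.2 (21.7 to 36.05) with another OR in tetOP2 and at 26.0 (21.5 to 31.1) in gg8tTA, both below the 47.0 with Olfr17. Each of these genotypes is 1 library, so there is no test between them, and the intervals cover counting error only.

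**Figure D5:**
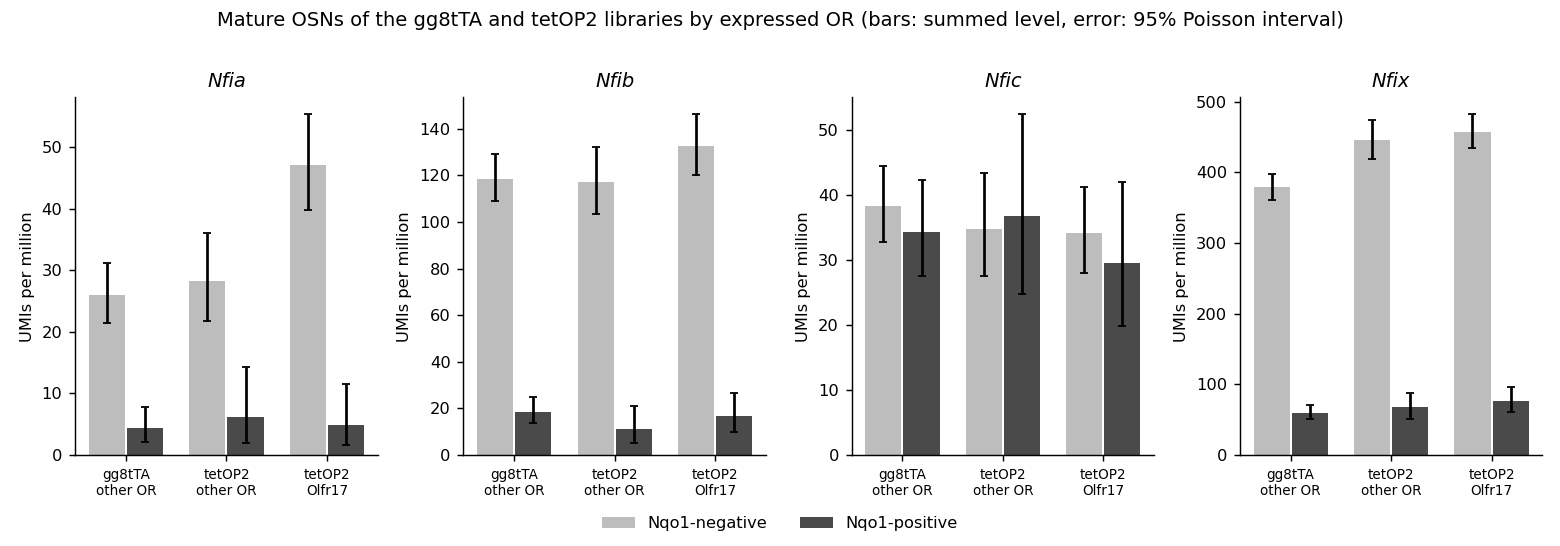
Summed level of each member in mature OSNs of the gg8tTA and tetOP2 libraries, in CPM, by the expressed OR and the Nqo1 class; bars are levels and error bars 95% Poisson intervals of the counts. With Olfr17, Nfix was 458 in Nqo1-negative and 76.7 in Nqo1-positive cells. With another OR it was 446 and 67.3 in tetOP2, and 379 and 60.0 in gg8tTA.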

How the data were processed

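The authors deposited counts, as 10x matrices of UMIs per gene and cell, 1 matrix per library for 6 libraries, mapped to mm10. The headers of the swap and control matrices name Cell Ranger 3.1.0, and the study's methods say that reads in introns were counted. Part of the genotype labels and of the gate markers is not reported here. The labels give sorted OSNs, the study's methods whole epithelium, and the cells hold many types.

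Barcodes under 1000 UMIs or 500 genes were removed, and predicted doublets (0.8% per 1000 cells) were left out. Cell types were gated by markers, with thresholds set after the data were seen: neuronal precursors had Neurod1, early immature OSNs at least 5 Gap43 and under 2 Omp UMIs, late immature OSNs Gap43 with at least 3 Omp UMIs. Neuronal stages had under 50 gland UMIs. Levels (CPM) are UMIs of a gene scaled to 1000000 UMIs of the cells summed, and intervals on single libraries are exact Poisson.

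Counts were summed per library and class, and tested by edgeR's quasi-likelihood test (4.0.16, R 4.3.3, TMM, filterByExpr) with Benjamini-Hochberg adjustment over all genes tested. Calls needed an adjusted p under 0.05 and a log2 fold change over 0.58, as in the study's methods. DESeq2 (1.42.0), no filter, libraries left out, other Nqo1 and Omp thresholds, thinning to 3000 UMIs, doublets kept and a replicate block were alternatives. The comparisons in early immature OSNs by Nqo1 and by OR, the 1 fit of 3 stages and those of OR groups within mature OSNs were added after seeing the data. Self-tests on simulated data with 200 changed genes recovered 68% of 2-fold and 93% of 4-fold changes in the zone comparison in control, over 11681 genes.

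The members and gene lists were chosen with earlier results of these data known. Named are the 4 members throughout, from each list at most 4 genes with the smallest adjusted p, and the 3 genes most correlated with each member over cell types. The replicates are separate libraries, 2 per group. In swap against control, p-values measure the spread between libraries of a group. In the tests with the library as a block, they measure how the class or stage difference varies between libraries. The stage, late and early immature and OR fits take swap and control libraries together for this. An exact permutation test of 2 against 2 libraries cannot go below 0.333. In these counts fewer expressing cells and fewer RNA molecules per cell are told apart only by shares of cells.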

Additional observations from a re-analysis of the deposited data

Results flagged for a closer look

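The zone difference of Nfib in mature OSNs differed between swap and control, and it was picked out because the difference between the 2 groups' effects was itself tested. Nfib was lower in Nqo1-positive than in Nqo1-negative cells by -4.15 ± 0.10 in control and by -3.06 ± 0.09 in swap, and the difference was 1.10 ± 0.15 (edgeR adjusted p = 0.0181). Both libraries of swap stood above both of control in Nqo1-positive cells, at 19.0 and 20.4 against 8.51 and 10.9 CPM. This separation says little by itself, as an exact permutation test of 2 against 2 libraries cannot go below 0.333. The levels are sums of 59 and 88 against 36 and 55 UMIs, on which counting error alone is wider than the ± of 0.15. In those Nqo1-positive cells that also had a dorsal OR, Nfib stood at 7.65 and 15.6 in swap against 9.59 and 6.50 in control. The groups thus overlapped there, on sums of 6 and 15 against 9 and 7 UMIs. The gg8tTA and tetOP2 libraries, which carry no swap allele, stood at 17.8 and 14.7 in Nqo1-positive and at 120.1 and 127 in Nqo1-negative cells, also above both controls in the former, and they did not enter this test. With cells thinned to 3000 UMIs the difference was 1.24 with an adjusted p of 0.419, and with doublets kept 0.85 with an adjusted p of 1.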

How the results depend on the processing

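Of 674 alternative values of the members, 610 kept their direction and their side of the thresholds, 39 turned in direction, 23 lost a call and 2 gained one. The called zone differences of Nfia, Nfib and Nfix in mature, late immature and early immature OSNs, by Nqo1 and by OR, kept their direction and call under all 6 to 11 alternatives run for each. Nfia in late immature OSNs by OR did not pass the filter. In mature OSNs of control they ranged from -3.38 to -2.30 for Nfia, from -4.42 to -3.43 for Nfib and from -2.86 to -2.56 for Nfix. Where a value turned or a call was lost, the cause was not tested unless fewer genes or libraries were used by construction.

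Thinning to 3000 UMIs turned Nfic in the zone comparison of swap to -0.12 and left the swap and control difference of Nfib at 1.24 without a call, as did keeping doublets, at 0.85. DESeq2 turned Nfic to -0.0341 in late immature OSNs by OR, to -0.0882 in early immature OSNs by Nqo1 and to -0.0023 in early immature OSNs by OR, and Nfib to 0.0608 from late immature to mature Nqo1-positive OSNs. It called the fall of Nfia from late immature to mature OSNs (-0.69) and did not call Nfib between the high and low OR groups (0.56). Without the filter Nfic turned to -0.00034 in late immature OSNs by OR, to -0.0698 in early immature OSNs by Nqo1 and to 0.0054 in the change of its zone difference from early to late. In control libraries alone Nfia from globose basal cells to precursors (1.09), and Nfia (-0.60) and Nfib (-0.65) from early to late immature OSNs, lost their calls, Nfix at the last step (0.61) gained one, and Nfib at the first turned to 0.20.

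Counts of called genes moved more. The zone comparison in control gave 876 genes, 324 by DESeq2 and 499 with all 6 libraries and 1 class effect. In swap it gave 644, 221 by DESeq2, 420 after thinning and 385 to 831 with a library left out. The difference between the 2 gave 37, 10 by DESeq2, 68 without the filter, 24 with doublets and 35 to 74 with a library left out. Swap against control gave 2 genes in Nqo1-negative mature OSNs (126 by DESeq2, 88 without the filter, 39 at 5 or more Nqo1 UMIs against 0, 141 to 346 with a library left out) and 32 in Nqo1-positive ones (66, 123 without the filter, and 124 to 267). In all mature OSNs it gave 0 (176 by DESeq2, 28 without the filter, 2 with 3 or more Omp UMIs, 182 to 211 with a library left out), in late immature OSNs 19 (33, 37 and 100 to 304) and in early immature OSNs 5 (28, 298 and 56 to 181). With a library left out, the lone library of a group is assumed to vary like the other group. Late against early immature OSNs gave 2463, and 1604 in control libraries alone. By OR, late immature OSNs gave 38 (15 by DESeq2, 192 without the filter, 24 to 60 with a library left out) and mature OSNs 335 (171 and 686). By Nqo1, late immature OSNs gave 117 (42 and 578).

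With each library left out in turn, ranges of log2 fold changes that crossed 0 or lost a call were as follows. In the zone comparison of swap Nfic ranged from -0.0747 to 0.19, and in the difference between swap and control Nfib from 0.97 to 1.21 and Nfix from -0.25 to 0.38. In swap against control, Nqo1-negative mature OSNs gave -0.32 to 0.13 for Nfib and -0.16 to 0.0596 for Nfic, Nqo1-positive ones -0.75 to 0.29 for Nfix, all mature OSNs -0.35 to 0.0899 for Nfib and -0.30 to 0.0281 for Nfic, late immature OSNs -0.35 to 0.0073 for Nfic, and early immature OSNs -1.39 to 0.36 for Nfia and -1.08 to 0.47 for Nfib. Along the lineage, from globose basal cells to precursors Nfia ranged from 0.61 to 1.01 and Nfib from -0.33 to 0.0374, to early immature OSNs Nfib from -1.06 to -0.52, to late ones Nfia from -0.91 to -0.55 and Nfib from -0.89 to -0.51, and to mature ones Nfib from -0.12 to 0.0294. By OR, Nfic ranged from -0.22 to 0.29 in late immature, -0.0572 to 0.13 in mature and -0.29 to 0.32 in early immature OSNs, and by Nqo1 from -0.0764 to 0.17 in late and -0.48 to 0.24 in early immature OSNs. The change of the zone difference from early to late ranged from -0.72 to 7.14 for Nfia, -0.0736 to 1.80 for Nfib and -0.17 to 0.35 for Nfic, and from late to mature from -0.26 to 0.35 for Nfib and -0.28 to 0.25 for Nfix. From late to mature, Nfib ranged from -0.0236 to 0.0914 in Nqo1-negative OSNs, and in Nqo1-positive ones Nfia ranged from -0.34 to 0.83, Nfib from -0.20 to 0.32 and Nfix from 0.61 to 1.09. Nfib between the high and low OR groups ranged from 0.45 to 0.71.

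Swap and control libraries share replicate numbers. Deviations of same-numbered libraries correlated at 0.242 to 0.389 over the 5 cell sets, but with 2 pairs and no label of a shared litter or day the numbers alone do not pair them. With the number as a replicate block, 36 genes were called in Nqo1-negative, 43 in Nqo1-positive and 0 in all mature OSNs, 37 in late and 29 in early immature OSNs, and no member was called.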

Other observations

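Nfib in sustentacular cells, which are outside the neuron lineage, ranged from 319 to 694 CPM over the 6 libraries, and Nfix in horizontal basal cells from 188 to 428. Both were lowest in the gg8tTA and tetOP2 libraries. These had the fewest cells and UMIs in total, but medians of 11543 and 11229 UMIs per cell, against 9991 to 11256 in the swap and control libraries. The cause of the difference was not tested.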
